A study of Drosophila melanogaster with 12 samples.

Results

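Ribosome-bound RNA of neurons was set against ribosome-bound RNA of the fat body, gene by gene, in heads of adult Drosophila melanogaster. The genes analysed were the 9715, of 15104 in the deposited table, with at least 1 FPKM in neuron IP, in fat body IP or in both. FPKM counts fragments by transcript length and by library total, so levels of genes of different length can be compared on it. The measure was the log2 ratio of FPKM + 1 in neuron IP to FPKM + 1 in fat body IP, and a positive ratio means a higher value in neuron IP.

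Ribosomes were labelled in 1 cell type of the living fly with ribosomal protein L10A fused to GFP. The lysate of 1000 heads was the Input, and what an antibody against GFP pulled from it was the IP. The polyA RNA of both was sequenced. Neuron flies had the genotype Elav-Gal4/+;UAS-GFP-L10A/+ and fat body flies had UAS-GFP-L10A/+;takeout-Gal4/+. Both were adults in the strain background 2202U, the only age given is adult, and every group, Inputs included, carried the UAS-GFP-L10A transgene. The driver therefore sets which cells each IP represents: Elav-Gal4 follows a gene of nearly all neurons, photoreceptors included, and takeout-Gal4 follows a gene known from the fat body around the brain and from antennae. Each of the 4 groups compared had 2 biological replicates, which the labels describe as pools of 4 technical replicates each. The remaining pair of groups, glia IP and glia Input, brings the series to 12 samples and is quoted only where stated.

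The table holds 1 FPKM per gene and group, which the authors had combined over both replicates. No value therefore has an SD or an n, and the depth behind it is unknown. A gene is called higher or lower here only where the q-value for this pair of IPs in the authors' deposited table was under 0.05. The table gives no q for the Inputs, so the lysates are described by their ratio alone.

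In ribosome affinity purification, a transcript is recovered when ribosomes of the tagged cells sit on it, so the pulled-down RNA approximates what those cells are translating. Neurons are known for peptide and small-molecule transmitters, for vesicle release and, in the eye, for the phototransduction cascade that runs from rhodopsin through a G protein and phospholipase C to TRP channels. The fat body is the insect counterpart of liver and adipose tissue. It stores lipid and glycogen, makes yolk and other haemolymph proteins, detoxifies, and secretes antimicrobial peptides under the Toll and Imd pathways.

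The labels were first set against marker genes. Of 6 fat body markers, 5 were higher in fat body IP, and their summed level was 2892 FPKM in neuron IP against 24834 FPKM in fat body IP, with 10080.1 FPKM in neuron Input and 9135 FPKM in fat body Input. Among them to, the gene whose promoter drives the fat body tag, had 9.57 FPKM in neuron IP against 44.4 FPKM in fat body IP, and Fbp1 was under 1 FPKM in both. Of 3 photoreceptor markers, 2 were higher in neuron IP, and their summed level was 22081 FPKM in neuron IP against 7455 FPKM in fat body IP, with 10156 FPKM in neuron Input and 13485 FPKM in fat body Input. Of 5 neuron markers only n-syb was called, higher in neuron IP, and para, a sodium channel gene, was under 1 FPKM in both. elav itself, the namesake of the neuron driver, was low, with 3.48 FPKM in neuron IP and 1.88 FPKM in fat body IP, and was not called. It was higher in the lysates, with 15.03 FPKM in neuron Input and 7.55 FPKM in fat body Input. Its log2 ratio was 0.63 between the IPs and 0.91 between the lysates. The 5 neuron markers summed to 353 FPKM in neuron IP, 86.2 FPKM in fat body IP, 521 FPKM in neuron Input and 398 FPKM in fat body Input. n-syb alone made up most of each sum, with 332 FPKM in neuron IP and 76.4 FPKM in fat body IP. No marker of the other cell types was listed at 0 in either IP, but not all of them reached 1 FPKM. The minimum of 1 FPKM in either IP was met by all 4 glia markers, 4 of 5 muscle markers and 4 of 5 hemocyte markers. The 4 glia markers summed to 994 FPKM in neuron IP against 1405 FPKM in fat body IP. Most of this was Gs2, with 929 FPKM in neuron IP and 1282 FPKM in fat body IP. The 5 muscle markers summed to 1268 FPKM in neuron IP against 1009.8 FPKM in fat body IP. Most of that was Act57B, with 1191 FPKM in neuron IP and 913 FPKM in fat body IP. The 5 hemocyte markers summed to 44.2 FPKM in neuron IP against 41.9 FPKM in fat body IP. Of these 14 genes only 2 hemocyte genes were called, 1 in each direction. The part of RNA from other cells in the ratios was not tested.

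Of the 9715 genes, 1041 (10.7%) were higher in neuron IP and 1332 (13.7%) were higher in fat body IP by the authors' q. On the values as deposited, the fat body side held the larger differences, an order that depends on the scaling. The median log2 ratio of the called genes was 1.63 on the neuron side and -1.997 on the fat body side. At least 16-fold differences were found for 21 genes on the neuron side and 64 genes on the fat body side. By size alone, 1416 genes (14.6%) were at least 2-fold higher in neuron IP and 1846 genes (19.1%) at least 2-fold higher in fat body IP. The median over all genes was -0.04. Between the lysates, 48 genes (0.495%) were at least 2-fold higher in neuron Input and 46 genes (0.475%) at least 2-fold higher in fat body Input. The middle 90% of genes thus spanned log2 ratios of -2.48 to 1.76 between the IPs and -0.34 to 0.53 between the lysates. More cells of a type, more RNA per cell and more ribosomes per transcript cannot be told apart in these bulk samples.

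The FPKM of all genes summed to 839267 in neuron IP and 1704813 in fat body IP, against 636575 in neuron Input and 578807 in fat body Input, so the zero of the ratio depends on the scaling. Scaling by the median deviation of 5599 well-detected genes from their mean over all 6 groups moved neuron IP against fat body IP by a log2 of about 0.13. Scaling to equal totals without ribosomal protein genes moved it by about 0.73. The pseudocount was added after scaling, so ratios of low-level genes moved by other amounts, some of them downwards. The 2-fold counts then became 1547 higher in neuron IP and 1600 higher in fat body IP with the first scaling, and 3190 and 977 with the second. With the second scaling the median log2 ratio of the called genes became 2.20 on the neuron side and -1.29 on the fat body side, and 16-fold differences numbered 45 on the neuron side and 14 on the fat body side. The direction of all 2373 called genes stayed as given under both scalings. This was fixed in advance, because the smallest absolute log2 ratio among called genes, 0.745, exceeds both shifts. The q-values were not recomputed after scaling, so whether the calls would remain is unknown. Where a scaling turns the direction of a list, its median after that scaling is given beside it.

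**Figure D1:**
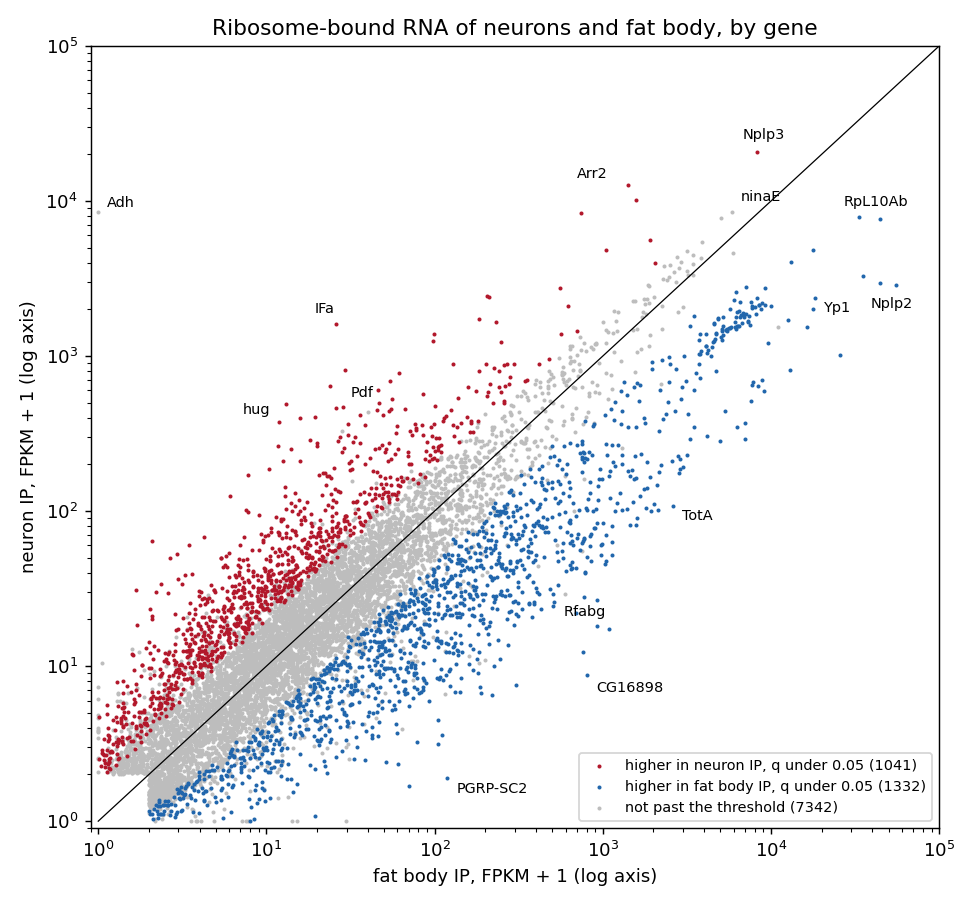
FPKM + 1 of each of the 9715 genes in neuron IP (vertical, log axis) against fat body IP (horizontal, log axis), 1 point per gene, coloured by the authors' q and direction; the line marks equal values. The 1041 genes higher in neuron IP form a compact band above the line, led by neuropeptides such as IFa and hug, and the 1332 genes higher in fat body IP reach farther from it, with CG16898, PGRP-SC2 and Rfabg at the edge and the ribosomal protein genes in a cluster near the top right.

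Neuropeptide precursors had the highest median of the 42 gene lists. Of 39 analysed, from 43 in the table, 30 were higher in neuron IP and 2 in fat body IP, and their median log2 ratio was 3.44. The ratio of the lysates for the same genes had a median of 0.0018. IFa, the precursor of SIFamide, a peptide of a few brain neurons that acts on mating and feeding, had 1612 FPKM in neuron IP against 25.01 FPKM in fat body IP, a log2 ratio of 5.95. The precursor of the feeding-related hugin peptides, hug, had 376 FPKM in neuron IP against 10.9 FPKM in fat body IP. The myosuppressin precursor Dms had 813 FPKM in neuron IP against 28.3 FPKM in fat body IP. In neuron IP these precursors stood above 300 FPKM, and in fat body IP none of the 3 passed 30 FPKM. The clock peptide gene Pdf had 471 FPKM in neuron IP against 27.7 FPKM in fat body IP, a log2 ratio of 4.04. Crz, the corazonin precursor, had 187 FPKM in neuron IP against 9.29 FPKM in fat body IP, a log2 ratio of 4.19. Other members with log2 ratios above 4 were capa (4.67), npf (4.49), which encodes neuropeptide F, Mip (4.45) and Ast-C (4.37), the last 2 giving allatostatins. CG13565, named Orcokinin in current releases, had 487 FPKM in neuron IP against 12.1 FPKM in fat body IP. CG14871, now Trissin, had 639 FPKM in neuron IP against 22.8 FPKM in fat body IP.

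The insulin-like peptides split by the tissue known to make them. Ilp2, Ilp3 and Ilp5, hormones of a small cluster of neurosecretory brain cells, were higher in neuron IP, and Ilp2 had 459 FPKM in neuron IP against 24.8 FPKM in fat body IP, a log2 ratio of 4.15. Ilp6, which the fat body secretes, had 14.8 FPKM in neuron IP against 141 FPKM in fat body IP, a log2 ratio of -3.17. A further 2 precursors were called on the side opposite to the 30 others. CCHa2, a peptide that in the fly is also made by gut and fat body, had 60.98 FPKM in neuron IP against 582 FPKM in fat body IP, a log2 ratio of -3.23. Nplp2 was the most abundant of all genes in fat body IP, with 2886 FPKM in neuron IP against 54996 FPKM in fat body IP, a log2 ratio of -4.25. It is named as a neuropeptide-like precursor and was also kept on the list of haemolymph proteins. Nplp3, another neuropeptide-like precursor, was the most abundant gene of neuron IP and had 20672 FPKM in neuron IP against 8300.4 FPKM in fat body IP, a log2 ratio of 1.32. With these genes included, the precursors as a list took up 3.70% of the FPKM sum of neuron IP and 3.77% of that of fat body IP.

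Genes that process peptides followed the precursors in part. Of 11 analysed, 6 were higher in neuron IP and 1 in fat body IP, with a median of 1.90. amon, the prohormone convertase, had 40.8 FPKM in neuron IP against 6.82 FPKM in fat body IP, a log2 ratio of 2.42. 7B2, its helper protein, had 603 FPKM in neuron IP against 45.3 FPKM in fat body IP, a log2 ratio of 3.71. The 2 genes for the lyase that completes peptide amidation were called in opposite directions. Pal2 had 253 FPKM in neuron IP against 27.8 FPKM in fat body IP. Pal1 had 15.96 FPKM in neuron IP against 43.9 FPKM in fat body IP. Phm, which carries out the preceding hydroxylation, was not called at 123 FPKM in neuron IP and 82.2 FPKM in fat body IP.

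Small-molecule transmitter genes were higher in neuron IP for 12 of 22, lower for 1, with a median of 1.30. Trh, the neuronal tryptophan hydroxylase of serotonin synthesis, had 67.1 FPKM in neuron IP against 3.23 FPKM in fat body IP, a log2 ratio of 4.01. Tdc2, the tyrosine decarboxylase that starts octopamine synthesis, had 29.1 FPKM in neuron IP against 1.21 FPKM in fat body IP, a log2 ratio of 3.77. The GABA-making enzyme Gad1 had 416 FPKM in neuron IP against 48.4 FPKM in fat body IP, a log2 ratio of 3.08. The acetylcholine-making enzyme Cha had 43.7 FPKM in neuron IP against 5.76 FPKM in fat body IP, a log2 ratio of 2.73. Serotonin, octopamine, GABA and acetylcholine synthesis thus each had a called gene. ple, the tyrosine hydroxylase of dopamine synthesis, had 13.8 FPKM in neuron IP and 10.5 FPKM in fat body IP and was not called. The vesicular monoamine transporter Vmat had 36.8 FPKM in neuron IP and 29.4 FPKM in fat body IP and was not called either. The exception on the list was Hn, phenylalanine hydroxylase, which also serves eye pigment synthesis, with 161 FPKM in neuron IP against 984 FPKM in fat body IP, a log2 ratio of -2.60.

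The machinery of synaptic vesicle release was higher in neuron IP for 15 of 23 genes and lower for 1, with a median of 1.73. The ratio of the lysates for these genes had a median of 0.45. As a list they took up 0.249% of the FPKM sum in neuron IP, under their 0.447% in neuron Input. In fat body IP they took up 0.029%, against 0.332% in fat body Input. comt, the NSF ATPase that takes SNARE complexes apart, had 418 FPKM in neuron IP against 34.9 FPKM in fat body IP, a log2 ratio of 3.55. Rop, the Sec1-type SNARE partner, had 226 FPKM in neuron IP against 33.6 FPKM in fat body IP, a log2 ratio of 2.72, and the SNARE genes Snap25 and n-syb had log2 ratios of 2.44 and 2.11. Several classic synapse genes were not called. The calcium sensor Syt1 had 13.98 FPKM in neuron IP and 6.704 FPKM in fat body IP, the active-zone scaffold brp had 3.26 FPKM in neuron IP and 1.12 FPKM in fat body IP, and the complexin gene cpx had 145 FPKM in neuron IP and 81.3 FPKM in fat body IP. Vap-33-1, an endoplasmic reticulum contact protein placed on this list, was the exception with 4.63 FPKM in neuron IP against 13.1 FPKM in fat body IP.

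Receptors for transmitters were higher in neuron IP for 13 of 26 genes and lower for 0, at lower levels than the peptide genes. Lcch3, a GABA-gated channel subunit, had 53.5 FPKM in neuron IP against 11.9 FPKM in fat body IP, a log2 ratio of 2.08. The acetylcholine receptor subunit nAcRbeta-96A had 31.9 FPKM in neuron IP against 5.28 FPKM in fat body IP, a log2 ratio of 2.39. ort, the histamine-gated chloride channel by which photoreceptor targets respond, had 16.7 FPKM in neuron IP against 2.52 FPKM in fat body IP, a log2 ratio of 2.33. Of 35 receptor genes, 9 did not reach 1 FPKM in either IP. Voltage-gated channels were scarcer still: 8 of 24 were under 1 FPKM in both IPs, 4 were higher in neuron IP and 1 in fat body IP. Their list took up 0.013% of the FPKM sum in neuron IP and 0.052% in neuron Input. In fat body IP it took up 0.0053%, against 0.047% in fat body Input. The sodium leak channel gene na had 11.6 FPKM in neuron IP against 2.43 FPKM in fat body IP. The A-type potassium channel gene Shal had 13.4 FPKM in neuron IP against 3.37 FPKM in fat body IP. Ih, the hyperpolarisation-activated channel, was on the opposite side with 16.2 FPKM in neuron IP against 45.5 FPKM in fat body IP. Of 16 neuronal RNA-binding proteins and transcription factors, 10 were analysed and 1 was called in each direction, near the shares over all genes. ey, the fly Pax6, had 19.3 FPKM in neuron IP against 6.004 FPKM in fat body IP. ap, a LIM-homeodomain factor, had 16.4 FPKM in neuron IP against 45.2 FPKM in fat body IP.

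Phototransduction genes formed another block, with 24 of 36 higher in neuron IP, 2 lower and a median of 1.76. These genes made up 6.51% of the FPKM sum in neuron IP and 0.705% in fat body IP. Rhodopsin, G protein, phospholipase C and channel each had a called gene. Among the opsins, Rh4 had 1255 FPKM in neuron IP against 96.9 FPKM in fat body IP, a log2 ratio of 3.68, and Rh3 had 1645 FPKM in neuron IP against 231 FPKM in fat body IP, a log2 ratio of 2.83. The eye G protein subunit gene Gbeta76C had 2443 FPKM in neuron IP against 205 FPKM in fat body IP, a log2 ratio of 3.57. Its partner Ggamma30A had 10169 FPKM in neuron IP against 1565 FPKM in fat body IP, a log2 ratio of 2.70. The phospholipase C gene, norpA, had 63.97 FPKM in neuron IP against 21.8 FPKM in fat body IP. The light-activated channel gene trp had 836 FPKM in neuron IP against 225 FPKM in fat body IP. Arr2, the main arrestin that switches rhodopsin off, had 12717 FPKM in neuron IP against 1408 FPKM in fat body IP, a log2 ratio of 3.17. The most abundant opsin gene, ninaE, which encodes Rh1, was not called. It had 8528 FPKM in neuron IP and 5822 FPKM in fat body IP, a log2 ratio of 0.55, with 5887 FPKM in neuron Input and 10027 FPKM in fat body Input. inaD, the scaffold of the cascade, had 435 FPKM in neuron IP and 39.4 FPKM in fat body IP, and its q of 0.0604 in the authors' deposited table missed the threshold. The 2 genes called in the other direction belong to the uptake and handling of carotenoids and retinoids, which partly takes place outside photoreceptors. santa-maria had 41.2 FPKM in neuron IP against 96.6 FPKM in fat body IP, and pinta had 27.6 FPKM in neuron IP against 131 FPKM in fat body IP.

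**Figure D2:**
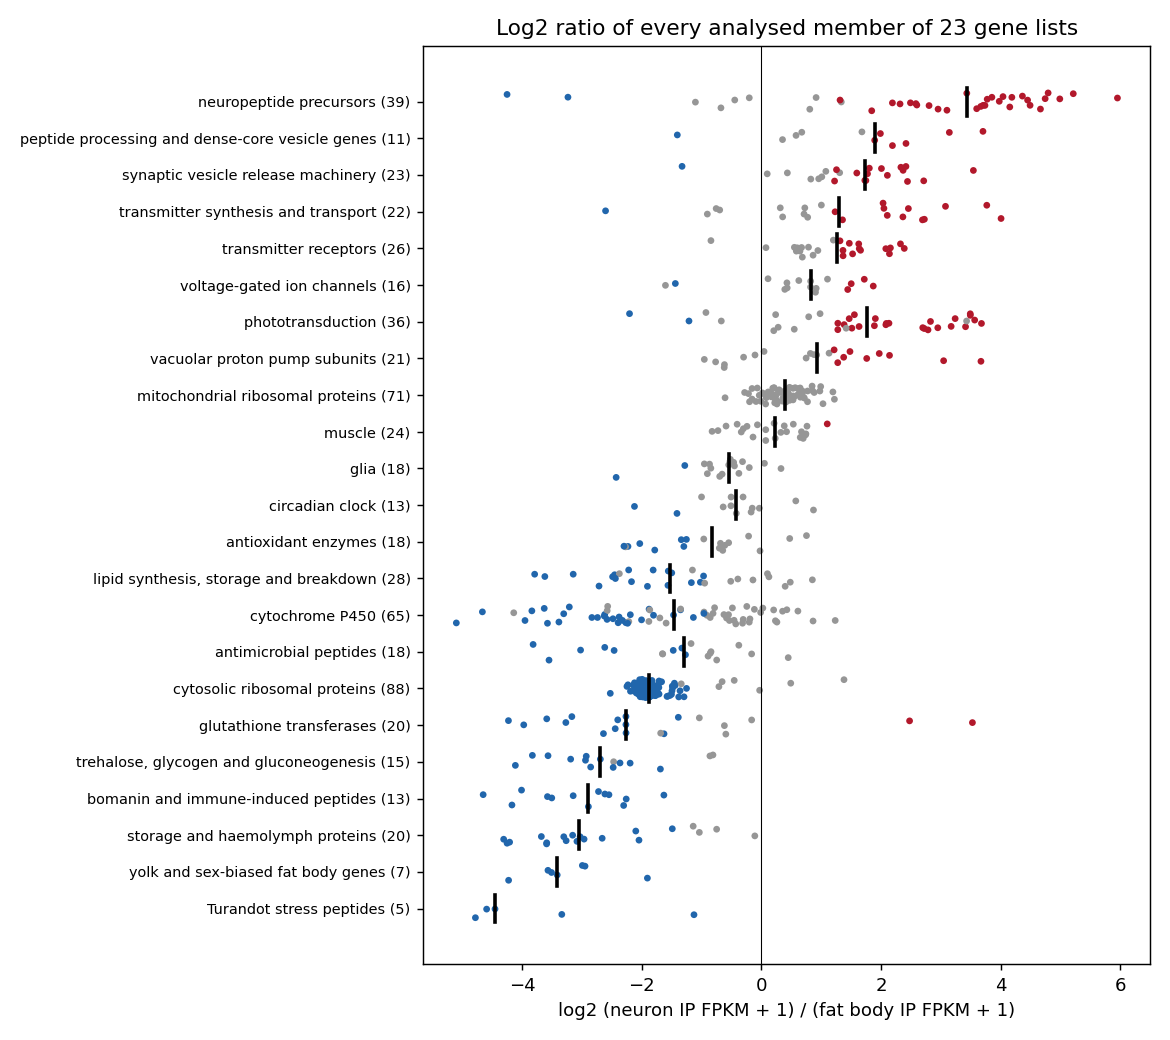
Log2 ratio of neuron IP to fat body IP (horizontal, FPKM + 1) for every analysed member of 23 gene lists, 1 point per gene; red points are called higher in neuron IP, blue points higher in fat body IP, grey points are not called, black ticks are list medians and the number of genes is in brackets. The 6 neuronal lists shown and the phototransduction list have medians from 0.82 to 3.44, the fat body lists reach -4.45, and single genes such as Nplp2 and Pal1 lie on the side opposite to the rest of their list.

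On the fat body side, all 7 yolk and sex-biased fat body genes in the table were higher in fat body IP, with a median of -3.41. The yolk protein gene Yp1 had 2368 FPKM in neuron IP against 18284 FPKM in fat body IP, and its relative Yp3 had 1538 FPKM in neuron IP against 16396 FPKM in fat body IP. fit, a female-biased secreted satiety signal, had 289 FPKM in neuron IP against 3301 FPKM in fat body IP, a log2 ratio of -3.51. Obp99b, an odorant-binding-type protein known to be male-biased in the head fat body, had 371 FPKM in neuron IP against 6963 FPKM in fat body IP, a log2 ratio of -4.23. dsx, the sex-determination transcription factor, had 3.49 FPKM in neuron IP against 15.8 FPKM in fat body IP, a log2 ratio of -1.91. Products known from females and from males were therefore both higher, and the labels used here give no sex.

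Haemolymph and storage proteins were higher in fat body IP for 16 of 21 genes and higher in neuron IP for 0, with a median of -3.06. Rfabg, which encodes the apolipophorins that carry lipid in the haemolymph, had 25.04 FPKM in neuron IP against 515 FPKM in fat body IP, a log2 ratio of -4.31, while its lysate values were 199 FPKM in neuron Input and 198 FPKM in fat body Input. The clotting protein gene fon had 19.6 FPKM in neuron IP against 380.0 FPKM in fat body IP, a log2 ratio of -4.21. Tsf1, the transferrin of the haemolymph, had 182 FPKM in neuron IP against 1496 FPKM in fat body IP, a log2 ratio of -3.03. The members not called were NLaz, the ferritin genes Fer1HCH and Fer2LCH, Idgf3 and Adh, a gene treated separately here because it is listed at 0 in fat body IP.

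Genes of lipid synthesis, storage and breakdown were higher in fat body IP for 17 of 28, with a median of -1.53, and 0 were higher in neuron IP. Lsd-1, the fly perilipin on lipid droplets, had 46.2 FPKM in neuron IP against 653 FPKM in fat body IP, a log2 ratio of -3.79. desat1, the fatty acid desaturase, had 226 FPKM in neuron IP against 2789 FPKM in fat body IP, a log2 ratio of -3.62. The fatty acid synthase gene CG3523 had 153 FPKM in neuron IP against 842 FPKM in fat body IP, a log2 ratio of -2.45. Calls extended from synthesis to release. Men, the malic enzyme that supplies NADPH, had a log2 ratio of -2.22, mdy, the last enzyme of triglyceride synthesis, -3.15, and the triglyceride lipase bmm -1.56. Lpin, for phosphatidate phosphatase, was not called at 80.8 FPKM in neuron IP and 57.5 FPKM in fat body IP. Fatp, for fatty acid uptake, was not called at 174 FPKM in neuron IP and 132 FPKM in fat body IP.

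Sugar storage went the same way, with 12 of 15 genes higher in fat body IP and a median of -2.69. Tps1, which makes trehalose, the blood sugar of insects, had 147 FPKM in neuron IP against 2096 FPKM in fat body IP, a log2 ratio of -3.83. tobi, an alpha-glucosidase gene regulated by insulin and adipokinetic hormone, had 28.4 FPKM in neuron IP against 507 FPKM in fat body IP, a log2 ratio of -4.11. sug, a sugar-responsive transcription factor, had 12.7 FPKM in neuron IP against 161 FPKM in fat body IP, a log2 ratio of -3.57. Gluconeogenesis and glycogen use were represented by Pepck, with 234 FPKM in neuron IP against 1696 FPKM in fat body IP, and by glycogen phosphorylase. The gene of the second enzyme, GlyP, had 346 FPKM in neuron IP against 1584 FPKM in fat body IP.

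Hormones of the fat body and receptors on it were mixed. Of 19 analysed, 6 were higher in fat body IP and 1 in neuron IP. GRHR, the older name of the adipokinetic hormone receptor by which the fat body is told to release fuel, had 12.2 FPKM in neuron IP against 128 FPKM in fat body IP, a log2 ratio of -3.29. daw, an activin-type ligand, had 7.39 FPKM in neuron IP against 59.3 FPKM in fat body IP, a log2 ratio of -2.84, and the insulin-responsive factors foxo and Thor had log2 ratios of -1.93 and -1.84. The octopamine receptor Oamb was on the neuron side with 14.4 FPKM in neuron IP against 4.98 FPKM in fat body IP. Several receptor genes had nearly the same value in both, such as the juvenile hormone receptor Met at 2.29 FPKM in neuron IP and 2.28 FPKM in fat body IP.

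Immune genes had calls on the fat body side in each of 5 classes and 0 on the neuron side. Antimicrobial peptides were called for 8 of 18 genes, bomanins and immune-induced peptides for 13 of 13, Turandot stress peptides for 5 of 5, recognition and Toll/Imd signalling genes for 13 of 33, and complement-like and melanisation genes for 4 of 11. Their median log2 ratios were -1.30, -2.89, -4.45, -1.23 and -1.30, in that order. Drs, the antifungal drosomycin and a Toll target, had 64.9 FPKM in neuron IP against 771 FPKM in fat body IP, a log2 ratio of -3.55. Mtk, metchnikowin, had 58.7 FPKM in neuron IP against 839 FPKM in fat body IP, a log2 ratio of -3.82. CG15068, now named BomS6, encodes a short bomanin, a Toll-induced peptide needed against fungi and some bacteria, and had 1021 FPKM in neuron IP against 25686 FPKM in fat body IP, a log2 ratio of -4.65. The bomanin list alone took up 0.969% of the FPKM sum in neuron IP and 4.99% in fat body IP. In glia IP its share was 4.45%, near that in fat body IP. TotA, a stress-induced secreted peptide, had 107 FPKM in neuron IP against 2616 FPKM in fat body IP, a log2 ratio of -4.59. TotX had 26.96 FPKM in neuron IP against 768 FPKM in fat body IP, a log2 ratio of -4.78.

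Upstream of these effectors, the receptors and signalling genes were called in part. Circulating sensors were among the called genes. PGRP-SA, which detects Gram-positive bacteria for Toll, had 8.06 FPKM in neuron IP against 75.97 FPKM in fat body IP, a log2 ratio of -3.09. GNBP3, which detects fungi, had 17.3 FPKM in neuron IP against 159 FPKM in fat body IP, a log2 ratio of -3.13. The proteases psh and SPE and the serpin nec, which act between sensing and Toll, had log2 ratios of -2.48, -1.91 and -2.75. The Imd transcription factor Rel had 24.2 FPKM in neuron IP against 74.4 FPKM in fat body IP. The membrane receptor Tl was not called at 4.81 FPKM in neuron IP and 5.904 FPKM in fat body IP. The Imd adaptor imd, at 22.9 FPKM in neuron IP and 47.1 FPKM in fat body IP, and the NF-kappaB factor dl, at 7.06 FPKM in neuron IP and 8.31 FPKM in fat body IP, were not called either. PGRP-SC2, an amidase that degrades peptidoglycan, had the lowest called ratio of the genes with a name, 0.887 FPKM in neuron IP against 118 FPKM in fat body IP, a log2 ratio of -5.97. PGRP-SD had 28.01 FPKM in neuron IP and 596 FPKM in fat body IP, a log2 ratio of -4.36, but its q in the authors' deposited table was 1.

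Detoxification genes followed. Of 65 cytochrome P450 genes analysed, 28 were higher in fat body IP and 0 in neuron IP, with a median of -1.47. Cyp309a1 had 25.8 FPKM in neuron IP against 917 FPKM in fat body IP, a log2 ratio of -5.10. Cyp28d1 had 28.2 FPKM in neuron IP against 417 FPKM in fat body IP, a log2 ratio of -3.84. Cyp6g1, known for insecticide resistance, had 24.4 FPKM in neuron IP against 313 FPKM in fat body IP, a log2 ratio of -3.63. Glutathione transferases were higher in fat body IP for 13 of 20, with a median of -2.26. GstE9 had 177 FPKM in neuron IP against 2145 FPKM in fat body IP, GstD1 had 717 FPKM in neuron IP against 3793 FPKM in fat body IP, and GstE7 had 51.2 FPKM in neuron IP against 978 FPKM in fat body IP. Within this family 2 genes were called on the neuron side. GstE4 had 22.3 FPKM in neuron IP against 1.02 FPKM in fat body IP, and GstD8 had 9.11 FPKM in neuron IP against 0.814 FPKM in fat body IP. Reads of such closely related copies can be assigned to the wrong member, and how the authors' counting divided them is not given in the sources used here.

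Metal and redox genes were called on the fat body side alone. The metallothionein gene MtnA had 3268 FPKM in neuron IP against 35469 FPKM in fat body IP, and MtnD had 3.52 FPKM in neuron IP against 104 FPKM in fat body IP. Their relatives MtnB, at 24.3 FPKM in neuron IP and 8.72 FPKM in fat body IP, and MtnC, at 16.7 FPKM in neuron IP and 4.95 FPKM in fat body IP, were not called. Of 18 antioxidant enzymes 7 were higher in fat body IP. Jafrac1, a peroxiredoxin, had 630.2 FPKM in neuron IP against 2959.6 FPKM in fat body IP. The mitochondrial superoxide dismutase Sod2 was not called at 549 FPKM in neuron IP and 395 FPKM in fat body IP. Of 6 analysed genes for Npc2-type sterol-binding proteins and their partner Npc1a, 2 were called. Npc2g had 176 FPKM in neuron IP against 2820.2 FPKM in fat body IP, and Npc2h had 110.3 FPKM in neuron IP against 2012 FPKM in fat body IP, while Npc2a, not called, had 460.4 FPKM in neuron IP and 433 FPKM in fat body IP. The median of that list was -0.56, and 0.077 after total scaling. Odorant-binding proteins, which had 6 of 25 genes higher in fat body IP and 0 in neuron IP, had a median of -0.50, or 0.21 after total scaling. Their called genes were led by Obp99b, given above, and Obp99c, with 815 FPKM in neuron IP against 13019 FPKM in fat body IP, a log2 ratio of -3.995. Among chemoreceptors 165 of 184 genes did not reach 1 FPKM in either IP. Of the other 19, those called were low-level genes, 1 of them higher in fat body IP and 9 higher in neuron IP, such as the co-receptor genes Ir76b and Ir25a. Or19b, also called on the neuron side, had a log2 ratio of 2.23 between the IPs and of 2.07 between the lysates. Ir76b had 10.8 FPKM in neuron IP against 0.614 FPKM in fat body IP, and Ir25a had 4.09 FPKM in neuron IP against 0.417 FPKM in fat body IP.

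**Figure D3:**
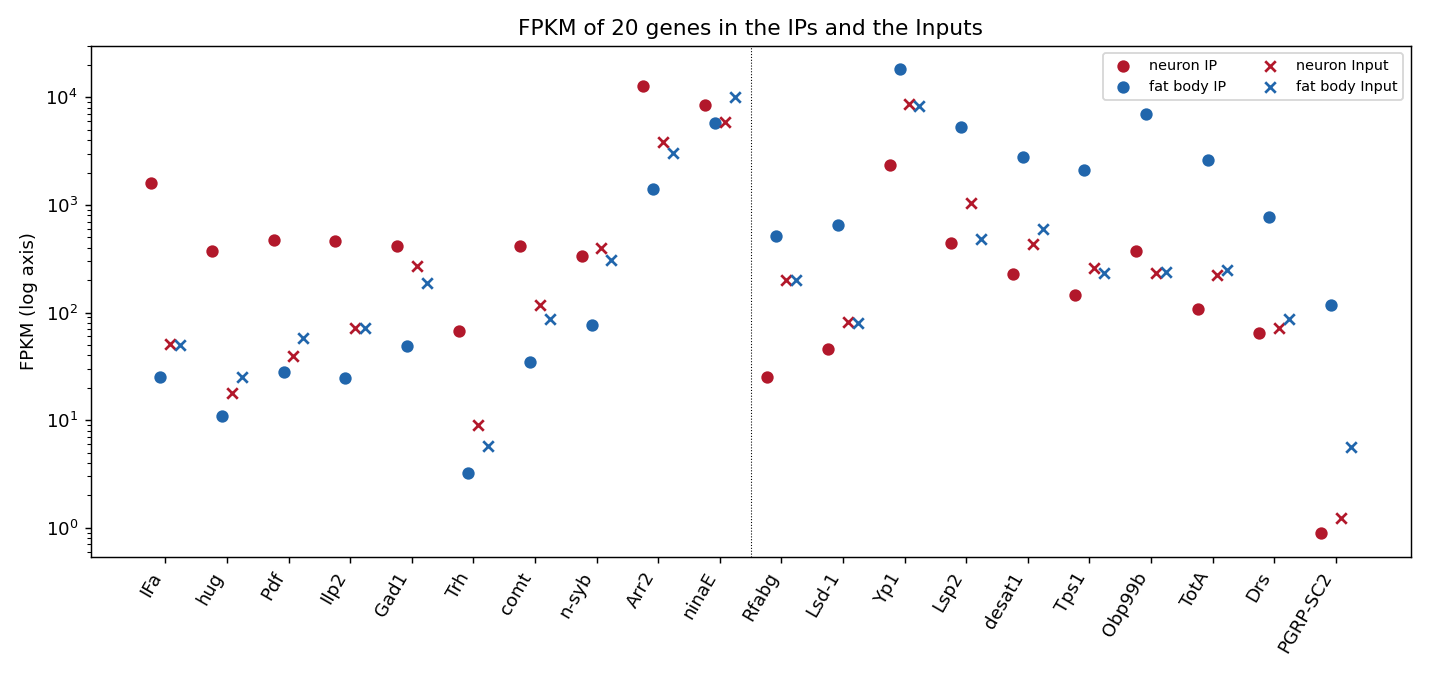
FPKM (vertical, log axis) of 20 genes in neuron IP, fat body IP, neuron Input and fat body Input; dots are IPs, crosses are Inputs, red is neuron and blue is fat body, and each mark is the authors' combined value of a group. In the 10 neuronal and photoreceptor genes on the left the red dot is above the blue dot, in the 10 fat body genes on the right the blue dot is above the red dot, and the 2 crosses lie close together in most genes, ninaE, Lsp2 and PGRP-SC2 being the widest apart.

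Lists of genes from other cell types were read against the shares over all genes, 10.7% higher in neuron IP and 13.7% higher in fat body IP. Counts near these shares were found on the fat body side for glia and the clock, while the hemocyte list was called more often on the fat body side. For glia 0 of 18 genes were higher in neuron IP and 2 in fat body IP. moody, a receptor of the blood-brain barrier, had 6.49 FPKM in neuron IP against 17.2 FPKM in fat body IP, and CG6126 had 19.5 FPKM in neuron IP against 109 FPKM in fat body IP. The glia median was -0.53, and 0.040 after total scaling. repo, the glial transcription factor, had 11.2 FPKM in neuron IP and 20.9 FPKM in fat body IP, against 141 FPKM in glia IP. Of 24 muscle genes only Mlp60A was called, at 892 FPKM in neuron IP against 415 FPKM in fat body IP, with a median of 0.22. Of 13 hemocyte genes 7 were higher in fat body IP and 1 in neuron IP. nimC3, of the Nimrod family of phagocytosis receptors, had 6.45 FPKM in neuron IP against 122 FPKM in fat body IP, a log2 ratio of -4.05. srp, the GATA factor that both blood and fat body use, had 6.99 FPKM in neuron IP against 66.1 FPKM in fat body IP, a log2 ratio of -3.07. Pxn, peroxidasin, had 21.4 FPKM in neuron IP against 4.57 FPKM in fat body IP, a log2 ratio of 2.01. Among 19 eye pigment genes 3 were called each way. w, the pigment precursor transporter, had 49.4 FPKM in neuron IP against 16.1 FPKM in fat body IP. v, tryptophan dioxygenase of ommochrome synthesis, had 20.3 FPKM in neuron IP against 187 FPKM in fat body IP. Cuticle and lens genes had 2 calls of 14, both on the neuron side, and a median of -0.17, or 0.47 after total scaling. The cuticle protein gene Acp1 had 731 FPKM in neuron IP against 279 FPKM in fat body IP, and Cpr72Ec had 51.6 FPKM in neuron IP against 12.3 FPKM in fat body IP. The male reproductive tract list had 1 call in each direction of 17 genes. Acp32CD, an accessory gland protein gene, had 11.04 FPKM in neuron IP against 0.577 FPKM in fat body IP, and Est-6, an esterase of seminal fluid, had 41.7 FPKM in neuron IP against 251 FPKM in fat body IP. Among 13 clock genes 2 were higher in fat body IP and 0 in neuron IP. Pdfr, the receptor for the Pdf peptide, had 6.32 FPKM in neuron IP against 18.5 FPKM in fat body IP. Pdp1, a transcription factor of the clock, had 3.498 FPKM in neuron IP against 18.6 FPKM in fat body IP. The clock median was -0.42, or 0.21 after total scaling. The core clock genes per, at 30.4 FPKM in neuron IP and 16.2 FPKM in fat body IP, and tim, at 60.3 FPKM in neuron IP and 80.9 FPKM in fat body IP, were not called.

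Glia IP, which no test here uses, gives a further value for the leading genes. IFa had 9.19 FPKM and Pdf 10.7 FPKM in glia IP, under their values in both other IPs. TotA had 49.3 FPKM, Rfabg 29.4 FPKM, Nplp2 1768 FPKM and Tps1 73.6 FPKM there, each closer to its value in neuron IP than to that in fat body IP. Other genes higher in fat body IP than in neuron IP had at least as much in glia IP, chosen here after their values had been seen. dro5, a drosomycin-type peptide gene, had 938 FPKM in neuron IP against 2263 FPKM in fat body IP and 4497 FPKM in glia IP. SPE had 67.8 FPKM in neuron IP against 257 FPKM in fat body IP and 282 FPKM in glia IP. Obp18a had 24.4 FPKM in neuron IP against 141 FPKM in fat body IP and 189 FPKM in glia IP. The antimicrobial peptide list summed to 1595 FPKM in neuron IP, 4877 FPKM in fat body IP and 8299.6 FPKM in glia IP. dro5 alone made up most of the sum in glia IP, and not every member shared this order. Drs had 771 FPKM in fat body IP and 321 FPKM in glia IP. Mtk had 839 FPKM in fat body IP and 106 FPKM in glia IP. For to, the driver gene of the fat body line, glia IP had 55.8 FPKM, which is not under its value in fat body IP. By share of the FPKM sum, metallothionein and iron genes had 2.28% in fat body IP and 2.48% in glia IP. Cytochrome P450 genes had 0.238% in fat body IP and 0.331% in glia IP. Yolk and sex-biased genes had 3.27% in fat body IP and 0.799% in glia IP, and Turandot genes 0.269% and 0.013%. These lists were picked after their values had been seen.

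Among genes of shared machinery, cytosolic ribosomal protein genes were called most often. In fat body IP 81 of 88 were higher and in neuron IP 0, with log2 ratios of the called genes between -2.53 and -1.25 and a median of -1.87. They made up 17.6% of the FPKM sum in neuron IP and 32.5% in fat body IP. RpL10Ab, the gene of the protein that carries the tag, had the lowest ratio of them, 7705 FPKM in neuron IP against 44378 FPKM in fat body IP, a log2 ratio of -2.53, with 2083 FPKM in neuron Input and 2273 FPKM in fat body Input. Without it the ribosomal shares were 16.7% in neuron IP and 29.9% in fat body IP. Whether transcripts of the transgene counted towards this gene is not given in the sources used here. Of 25 translation factors, 11 were higher in fat body IP and 1 in neuron IP, with a median of -1.002. eIF-5A, which helps ribosomes through stalling sequences, had 693 FPKM in neuron IP against 3128 FPKM in fat body IP. Of 71 mitochondrial ribosomal protein genes 0 were called in either direction and 3 were at least 2-fold higher in neuron IP, with a median of 0.40.

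Subunits of the vacuolar proton pump, which acidifies vesicles so that transmitters can be loaded, were higher in neuron IP for 9 of 21 and lower for 0. Of 33 subunit genes, 12 were under 1 FPKM in both IPs. The median was 0.93, and 0.0036 without a minimum FPKM. Vha13 had 2105 FPKM in neuron IP against 619.8 FPKM in fat body IP, and some subunits with alternative copies had 1 copy called. VhaM9.7-a had 693 FPKM in neuron IP against 53.4 FPKM in fat body IP, a log2 ratio of 3.67. VhaM9.7-b had 143 FPKM in neuron IP and 220.0 FPKM in fat body IP and was not called. Vha68-1 had 451 FPKM in neuron IP against 53.7 FPKM in fat body IP. Vha68-2 had 45.1 FPKM in neuron IP and 77.3 FPKM in fat body IP and was not called. Of 32 proteasome genes, 4 were higher in fat body IP and 0 in neuron IP, a count near the 13.7% of all genes, with a median of -0.61 that became 0.014 after total scaling. Glycolysis had 4 of 14 genes higher in fat body IP and 1 in neuron IP, with a median of -0.54, or 0.19 after total scaling. Heat shock and chaperone genes had 5 of 20 higher in neuron IP and 3 in fat body IP, the latter near the 13.7% of all genes. The small heat shock gene Hsp23 had 251 FPKM in neuron IP against 12.9 FPKM in fat body IP, a log2 ratio of 4.17. Hsp67Ba, of the same class, had 43.7 FPKM in neuron IP against 4.65 FPKM in fat body IP, a log2 ratio of 2.98. The endoplasmic reticulum chaperone Hsc70-3, the fly BiP, had 47.2 FPKM in neuron IP against 146 FPKM in fat body IP. Among noncoding RNAs 629 of 750 were under 1 FPKM in both IPs. Of the 121 others 2 were higher in neuron IP and 10 in fat body IP, with a median of -0.51, or 0.011 after total scaling. These counts are fewer than the shares over all genes would give, but this list was drawn by gene name. By annotated biotype, 60 analysed ncRNA genes had 4 calls in neuron IP and 7 in fat body IP, against 10.7% and 13.7% of all genes. For 24 pseudogenes the calls were 1 and 6, and for 42 snoRNA genes 0 and 0. PolyA libraries hold small noncoding RNAs only in part.

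In a few families, related genes with the same activity were called in opposite directions. Of the hexokinases, which carry out the first step of glycolysis, Hex-A had 54.2 FPKM in neuron IP against 23.9 FPKM in fat body IP, a log2 ratio of 1.15, and Hex-C had 46.4 FPKM in neuron IP against 538 FPKM in fat body IP, a log2 ratio of -3.51. The lyases Pal2 and Pal1 and the transferases GstE4 and GstE7 form the same kind of pair. Of the genes for translation elongation factor 1 alpha, Ef1alpha100E had 381 FPKM in neuron IP against 111 FPKM in fat body IP, a log2 ratio of 1.77. Ef1alpha48D had 1545 FPKM in neuron IP and 11055 FPKM in fat body IP, but its q in the authors' deposited table was 1, so it was not called. These pairs were picked after their values had been seen.

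Some abundant genes had almost equal values in both IPs. The 6 most abundant uncalled genes with ratios within 0.25 of zero encode, with 1 exception, respiratory chain or ATP synthase subunits, according to their current names. CG2249, now COX7C, a subunit of cytochrome c oxidase, had 4301 FPKM in neuron IP and 3812 FPKM in fat body IP. CG9603, now COX7A, had 3327 FPKM in neuron IP and 3433 FPKM in fat body IP. CG4692, now ATPsynF, had 3914 FPKM in neuron IP and 3449 FPKM in fat body IP. The exception was Neb-cGP, with 3347 FPKM in neuron IP and 3223 FPKM in fat body IP.

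The ratio of the lysates tells which calls were already present before the pull-down. Of the 1041 genes higher in neuron IP, 12 (1.15%) were at least 2-fold higher in neuron Input too, 0 were 2-fold the other way, and 990 (95.1%) differed by less than 1.5-fold between the lysates. Of 1331 genes higher in fat body IP and above 0 in both, 30 (2.25%) were at least 2-fold higher in fat body Input, 16 were 2-fold higher in neuron Input, and 1162 (87.3%) differed by less than 1.5-fold. For the 42 genes with the same direction, a difference between the fly lines and a difference between the tagged cell types cannot be told apart.

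The lysate difference was large in a small number of genes. Tektin-C, a gene for a filament of cilia and sperm tails, had 62.9 FPKM in neuron IP against 1.09 FPKM in fat body IP, a log2 ratio of 4.94, with 33.96 FPKM in neuron Input and 1.31 FPKM in fat body Input. The eye colour gene w, which is also the usual marker of fly transgenes, had 21.0 FPKM in neuron Input and 5.67 FPKM in fat body Input, a log2 ratio of 1.72 between lysates and of 1.56 between IPs. In Bin1, a gene for a subunit of a histone deacetylase complex, the lysates were farther apart than the IPs: it had 43.6 FPKM in neuron IP against 188 FPKM in fat body IP, a log2 ratio of -2.08, with 22.2 FPKM in neuron Input and 234 FPKM in fat body Input, a log2 ratio of -3.34. CG16898, the gene with the lowest called ratio, also differed between lysates. It had 7.71 FPKM in neuron IP against 805 FPKM in fat body IP, a log2 ratio of -6.53, with 11.2 FPKM in neuron Input and 68.99 FPKM in fat body Input. CG5999, now Ugt37A3, a UDP-glycosyltransferase, had 11.4 FPKM in neuron IP against 762 FPKM in fat body IP, a log2 ratio of -5.95, with 7.498 FPKM in neuron Input and 78.9 FPKM in fat body Input. PGRP-SC2 and Cyp309a1, named above for their low ratios, had lysate log2 ratios of -1.57 and -1.44 in the same direction.

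In the 16 genes that ran the opposite way, the transcript was scarcer in the fat body lysate and yet higher in fat body IP. Lsp2, a storage protein of the haemolymph, had 443 FPKM in neuron IP against 5338 FPKM in fat body IP, but 1038 FPKM in neuron Input and 482 FPKM in fat body Input. Lsp1beta, of the same family, had 102 FPKM in neuron IP against 913 FPKM in fat body IP, but 257 FPKM in neuron Input and 98.2 FPKM in fat body Input. CG6188, which encodes glycine N-methyltransferase, had a log2 ratio of -2.99 between IPs and 1.25 between lysates, and the antibacterial peptide gene Dpt had -2.46 and 1.05. Relative to their own lysates, the groups stood farther apart in these genes than the ratio between IPs alone gives.

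**Figure D4:**
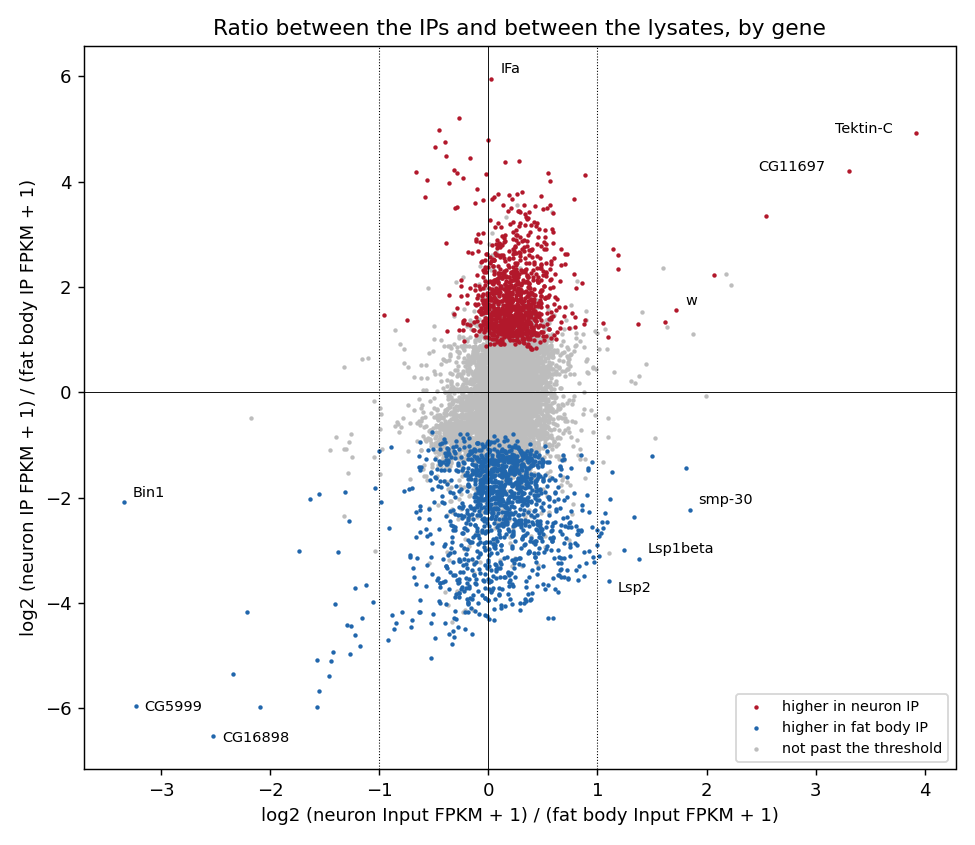
Log2 ratio of neuron IP to fat body IP (vertical) against log2 ratio of neuron Input to fat body Input (horizontal), 1 point per gene listed above 0 in both IPs, FPKM + 1, coloured by the call; dotted lines mark 2-fold between the lysates. Nearly all called genes stand in a narrow column between the dotted lines, with Tektin-C and w to the upper right, Bin1, CG5999 and CG16898 to the lower left, and Lsp2, Lsp1beta and smp-30 to the lower right.

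What the called genes shared beyond their function was examined in the annotation. Genes higher in neuron IP had a median longest annotated transcript of 2341.5 bp and 5 exons, against 1605 bp and 3 exons for genes higher in fat body IP and 1894 bp and 4 exons for all analysed genes. In the shortest of 3 equal bins of genes 223 of 3048 (7.32%) were higher in neuron IP and 528 (17.3%) in fat body IP. In the middle bin of 3054 genes the shares were 10.9% and 15.2%. In the longest bin of 3052 genes 429 (14.1%) were higher in neuron IP and 283 (9.27%) in fat body IP, so the larger share was on the neuron side here and on the fat body side in the other bins. Ribosomal protein genes are short, and without them 456 genes of the shortest bin were higher in fat body IP. Across the 9154 genes with a length, the log2 ratio between IPs and transcript length had a Spearman rho of 0.15, and the log2 ratio between lysates, where no pull-down took place, had a rho of 0.17. Both are descriptions over genes that share libraries. Whether fragment recovery by length contributes was not tested.

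**Figure D5:**
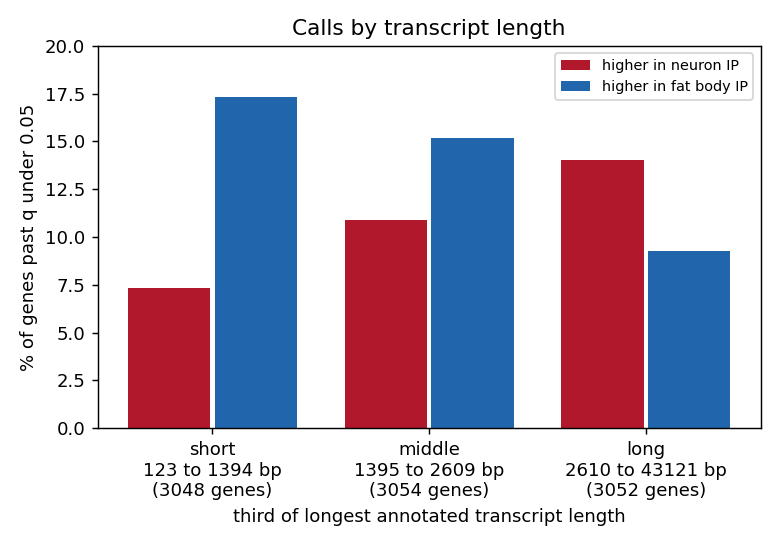
Percentage of genes called by the authors' q (vertical) in each of 3 equal bins of genes by longest annotated transcript length in bp (horizontal); red bars are genes higher in neuron IP and blue bars genes higher in fat body IP. The red bars go from 7.32% in the shortest bin to 14.1% in the longest, and the blue bars from 17.3% to 9.27%.

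Genes higher in fat body IP were often neighbours. With analysed genes in chromosome order, 506 of 1275 placed genes higher in fat body IP (39.7%) had a directly adjacent gene that was also higher there, against 2337 of all 9178 placed genes (25.5%). For genes higher in neuron IP the corresponding shares were 233 of 983 (23.7%) and 1862 of 9178 (20.3%). Runs of at least 4 adjacent genes called in the same direction numbered 3 on the neuron side and 18 on the fat body side. The longest had 12 genes, 10 of them immune-induced peptides that included IM1, IM2, IM3, IM23 and CG15068, followed by Idgf5 and GstE1, with log2 ratios between -4.65 and -2.30. GstD1 to GstD6 formed a run of 6 with log2 ratios between -3.97 and -1.39, and Dpt and DptB stood in a run of 4. These are tandem families of related genes, so neighbours are neither independent in sequence nor in counting. Among the large chromosome arms the share of genes higher in neuron IP lay between 10.3% and 11.02%, and the share higher in fat body IP between 11.6% and 16.05%, the highest on 2R, the arm of the 12-gene run.

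A few genes fall at the limits of the measure. In 26 genes an IP was listed at 0, 13 in each IP, and no ratio was formed. Adh, the alcohol dehydrogenase gene, was among them at 8479.5 FPKM in neuron IP and a listed 0 in fat body IP, with 7955 FPKM in neuron Input and 6294 FPKM in fat body Input, and its q in the authors' deposited table was 1. A listed 0 at such a level can be a failed estimate. Of the 26 only CR43105 was called, listed at 0 in neuron IP and at 6.98 FPKM in fat body IP. Just inside the limit of 1 FPKM were ran-like, with 0.3103 FPKM in neuron IP and 1.00001 FPKM in fat body IP, and CG33267, with 1.0003 FPKM in neuron IP and 0.954 FPKM in fat body IP. Just outside it were CG7886, with 0.34995 FPKM in neuron IP and 0.999 FPKM in fat body IP, and CG5245, with 0.921 FPKM in neuron IP and 0.998 FPKM in fat body IP. Of 451 genes with at least a 4-fold ratio and 20 FPKM in both IPs, 20 were not called, 10 of these with a q of 1 in the authors' deposited table, such as whd, the carnitine palmitoyltransferase gene, at 31.2 FPKM in neuron IP and 166 FPKM in fat body IP, and Idh at 255 FPKM in neuron IP and 1293 FPKM in fat body IP. Gycalpha99B, a guanylate cyclase subunit gene, had 329.6 FPKM in neuron IP and 27.04 FPKM in fat body IP and a q of 0.209 there. The same q as for whd and Idh was listed for 151 of the analysed genes. Whether it marks a gene that was tested is not given in the sources used here. Such genes count as not called in every list.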

How the data were processed

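Paired-end libraries of polyA RNA were made from IP and Input, per the labels' protocols. The submitters' processing notes name TopHat2 2.0.6, the genome build BDGP5, Cufflinks 2.0.2 and Cuffdiff 2.0.2, without the role of each. In their table of 15104 genes the authors deposited 6 columns of FPKM, each a group value combined over replicates, and 3 columns of q-values, each for a pair of IPs. Annotation release, library scaling, strand setting and the step that gave q are not given in the sources used here. Without strand, overlapping and antisense genes cannot be told apart, and near-identical copies are uncertain.

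Calculations used Python 3.11.15, numpy 2.4.6 and pandas 2.3.3, with figures from matplotlib 3.10.9. The table holds no counts and no values per replicate, so the depth is unknown, and no test of the authors' values was added. The limma fit planned for replicate values was not run. Genes with at least 1 FPKM in either IP entered, the pseudocount was 1, and genes listed at 0 in either IP were left out of ratios and 2-fold counts. Calls used the authors' q under 0.05, with direction from FPKM. A list's count is over its members that passed the minimum, a choice that favours genes high in 1 of the IPs. The code for the ratio, the 2-fold count and the median scaling was run on a copy of the fat body IP values with known changes set without noise. That check covers the arithmetic only, and neither the calls by q nor variation between replicates.

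The genes analysed and the 42 lists, holding 1973 genes of the table with 12 further names not found and 17 genes on more than 1 list, were chosen with earlier results of these data known. The rule for naming genes took the driver and tag genes, the 12 highest and 12 lowest called ratios among genes with a name, the most abundant and most different members of each list, genes whose lysates differed most, the most abundant genes with ratios near 0, and genes at the limits. Further members of the lists were named after their values had been seen. Transcript lengths, exons, arms and gene order came from a BDGP6 annotation matched by gene identifier, which gave a length for 94.5% of genes; no coordinates were used.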

Additional observations from a re-analysis of the deposited data

How the results depend on the processing

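The counts by q, the medians of the lists and the named genes were recomputed under other settings. The called genes kept their direction under both scalings, which the size of their ratios fixed in advance, and q was not recomputed for either scaling. Without a minimum FPKM the calls were 1081 higher in neuron IP and 1356 higher in fat body IP, and with a minimum of 5 FPKM 924 and 1233. With q under 0.01 they were 731 and 1026. There 11 of 196 named genes lost their call, a total that includes named genes that had no call to lose. Leaving out genes whose lysates differ 2-fold, an alternative chosen after seeing the data, gave 1029 and 1286. Counts by ratio depended more on the setting. Total scaling gave 3190 genes at least 2-fold higher in neuron IP and 977 at least 2-fold higher in fat body IP. A pseudocount of 5 gave 848 genes 2-fold higher in neuron IP, and between the lysates 20 higher in neuron Input and 18 higher in fat body Input, against 84 and 90 with a pseudocount of 0.1. Calls whose lysates already differed the same way numbered 5 on the neuron side and 15 on the fat body side with a pseudocount of 5, and 48 and 63 when 1.5-fold was enough. With a minimum of 5 FPKM there were 7 on the neuron side. Under total scaling the list medians that changed sign were those of Npc2 (0.077), glia (0.040), cuticle and lens (0.47), circadian clock (0.21), glycolysis (0.19), proteasome (0.014), odorant-binding proteins (0.21) and noncoding RNAs (0.011). That scaling raises neuron IP relative to fat body IP. All but 10 of the 42 medians moved by over 1.5 times or changed sign under it. This was largely fixed in advance, because the shift in log2 of about 0.73 is itself more than 1.5-fold. Other settings moved fewer. With a pseudocount of 5 the median was 2.53 for neuropeptide precursors, 1.02 for peptide processing and -0.63 for antimicrobial peptides. That of cytochrome P450 was -0.72 without a minimum FPKM and -2.10 with a minimum of 5 FPKM. Without a minimum the median of vacuolar proton pump subunits was 0.0036. No paired analysis was possible because the table holds 1 combined value per group, and leaving out a replicate was not possible for the same reason. Without counts the depth sets no stated limit.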
